A study of Mus musculus with 10 samples.

Results

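Respiratory complex I subunit genes were described in cells sorted from mouse melanoma. Of 34162 gene names in the deposited table, 38 were taken. They are Nduf followed by a, b, c, s or v and a number, together with Ndufab1. They were chosen by name alone, and their 132 transcript rows were summed to 1 estimated count per gene and library. The 10 libraries held RNA from cells submitted as tumour cells of mice of strain C57BL/6:SV129. The cells were taken from skin (primary) or from a lymph node bearing metastasis. They were sorted by flow cytometry on GFP, with GFP+ cells labelled c-Myc-high and GFP- cells c-Myc-low. Each class had 2 libraries from skin and 3 from lymph nodes, all untreated as far as the labels say. The labels give neither the ages nor the tumour driver, nor whether the replicates are different animals. The p-values therefore reflect variation among these libraries only, which may be technical. In such sorted bulk samples, fewer cells of a type and less RNA per cell cannot be told apart.

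Complex I is the entry point of the mitochondrial respiratory chain. It takes electrons from NADH, passes them along a flavin and a row of iron-sulphur clusters to ubiquinone, and pumps protons across the inner membrane. Its core subunits carry the chemistry, and the supernumerary subunits surround, stabilise and help assemble them. Most are encoded in the nucleus, and their promoters are known for sites of nuclear respiratory factors. The subunits of the membrane arm core that mitochondrial DNA encodes were not analysed here. Ndufa4 carries a complex I name but is now placed in complex IV, the terminal oxidase, and Ndufa4l2 is its paralogue, best known as a gene induced under hypoxia.

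Total estimated counts per library ran from 1603012 in primary c-Myc-high replicate 2 and 2641865 in metastatic c-Myc-high replicate 3 to 6844328. The class names stand for the GFP sort gates. Myc itself was at 997 and 104 normalised CPM in c-Myc-high and 162 and 318 in c-Myc-low skin libraries, and 148, 267 and 234 in c-Myc-high and 101, 231 and 317 in c-Myc-low lymph node libraries, so its RNA overlapped between the classes at both sites. Libraries also held marker transcripts of cell types other than melanocytes, whose source the labels do not give. The summed level of 16 keratinocyte genes was 24034 to 63686 CPM (counts scaled to each library's total) in the primary libraries and 37.8 to 336 CPM in the metastatic ones, where Flg, which encodes the skin barrier protein filaggrin, was listed at 0 in 5 of 6. The 12 melanocyte genes summed to 398 to 2391 CPM in primary and 3296 to 26839 CPM in metastatic libraries, and Gpr143 alone of the 12 was under 1 estimated count in some libraries. Salivary gland genes reached 177638 and 46150 CPM in metastatic c-Myc-high replicates 1 and 3, against 12.3 to 1023 CPM elsewhere. Leukocyte genes summed to 29.9 to 125 CPM in primary and 329 to 6621 CPM in metastatic libraries. In every primary library the keratinocyte sum exceeded the melanocyte sum. The words primary and metastatic cells therefore stand for the site of sampling, not for a known cell content. The part of these marker transcripts in the results on complex I was not tested.

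RefSeq promoter windows of GRCm38.p6, from 250 bases before to 50 after the gene start, matched 33 of the 38 genes. Each was searched on both strands for the Myc and Max E-box CACGTG, the nuclear respiratory factor half-site TGCGCA, the Ets-type core CCGGAA bound by GABPA, the YY1 core AAGATGG and the ERR half-site AAGGTCA. The half-site TGCGCA was in 30.3% of the subunit genes and in 8.79% of all 27025 genes with a window. The Ets core was in 30.3% against 16.7%, the YY1 core in 21.2% against 7.28% and the ERR half-site in 9.09% against 5.38%. The E-box was in 6.06%, namely Ndufv1 and Ndufa7, against 8.09% of all genes. These shares describe letters in a window, and a match is no evidence of binding. The windows below are shown because they hold the most different motifs, with ties taken in alphabetical order, and Ndufv1 was added after the search because it holds the E-box. Capitals mark every match of these motifs, on either strand. All 5 windows lie on the minus strand, at chr6:126849095-126849394, chr16:37654319-37654618, chr4:40279372-40279671, chr19:44555393-44555692 and chr19:4012706-4013005 in the order printed.
Ndufa9: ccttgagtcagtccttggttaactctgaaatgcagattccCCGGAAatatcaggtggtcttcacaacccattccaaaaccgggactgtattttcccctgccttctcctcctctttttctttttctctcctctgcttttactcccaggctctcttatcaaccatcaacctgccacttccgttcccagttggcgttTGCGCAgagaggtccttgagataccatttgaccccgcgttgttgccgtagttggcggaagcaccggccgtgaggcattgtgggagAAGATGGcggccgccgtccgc
Ndufb4: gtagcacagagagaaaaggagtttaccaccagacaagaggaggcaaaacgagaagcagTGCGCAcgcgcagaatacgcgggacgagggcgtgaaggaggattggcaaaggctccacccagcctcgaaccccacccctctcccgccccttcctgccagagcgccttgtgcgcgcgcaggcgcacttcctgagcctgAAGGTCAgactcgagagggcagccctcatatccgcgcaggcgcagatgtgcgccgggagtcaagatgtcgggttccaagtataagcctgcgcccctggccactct
Ndufb6: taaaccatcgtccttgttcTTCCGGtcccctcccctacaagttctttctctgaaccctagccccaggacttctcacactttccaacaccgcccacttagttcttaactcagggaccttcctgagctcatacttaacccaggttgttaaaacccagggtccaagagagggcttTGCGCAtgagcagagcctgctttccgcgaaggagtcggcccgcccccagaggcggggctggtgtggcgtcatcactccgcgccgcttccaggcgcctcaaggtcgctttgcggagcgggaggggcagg
Ndufb8: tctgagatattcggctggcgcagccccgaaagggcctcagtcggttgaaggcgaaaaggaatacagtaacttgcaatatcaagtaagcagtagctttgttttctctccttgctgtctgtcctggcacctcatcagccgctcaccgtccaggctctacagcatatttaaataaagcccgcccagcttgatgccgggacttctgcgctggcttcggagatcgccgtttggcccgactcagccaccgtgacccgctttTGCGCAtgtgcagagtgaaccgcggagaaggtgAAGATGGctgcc
Ndufv1: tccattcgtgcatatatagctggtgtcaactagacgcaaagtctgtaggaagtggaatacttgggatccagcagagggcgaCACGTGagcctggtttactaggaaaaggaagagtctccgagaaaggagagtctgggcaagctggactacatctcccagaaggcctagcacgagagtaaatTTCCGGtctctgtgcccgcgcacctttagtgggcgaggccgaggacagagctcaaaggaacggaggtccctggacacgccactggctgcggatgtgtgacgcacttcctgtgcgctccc
Ndufa9, whose window held the half-site, the Ets core and the YY1 core, encodes a matrix-arm subunit of the dehydrogenase fold. Ndufb4, Ndufb6 and Ndufb8 encode subunits of the distal membrane arm. Ndufv1 encodes the subunit that binds NADH and the flavin.

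All 38 genes passed the filter on low counts, and 37 had counts in all 10 libraries. Ndufa4l2 was the exception, with counts in 7. Compared per length, the median RPKM over libraries of those 37 ran from 1.08 for Ndufb3 to 20.5 for Ndufa3, a 19.0-fold range. A gene's RPKM is the sum over its transcript rows, 1 for Ndufb3 and 6 for Ndufa3. The order may therefore depend in part on the transcripts annotated. Of the 37, 28 lay within 2-fold of their middle value of 5.35 RPKM. Together the 38 genes took 0.0877% to 0.233% of a library's count.

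**Figure D1:**
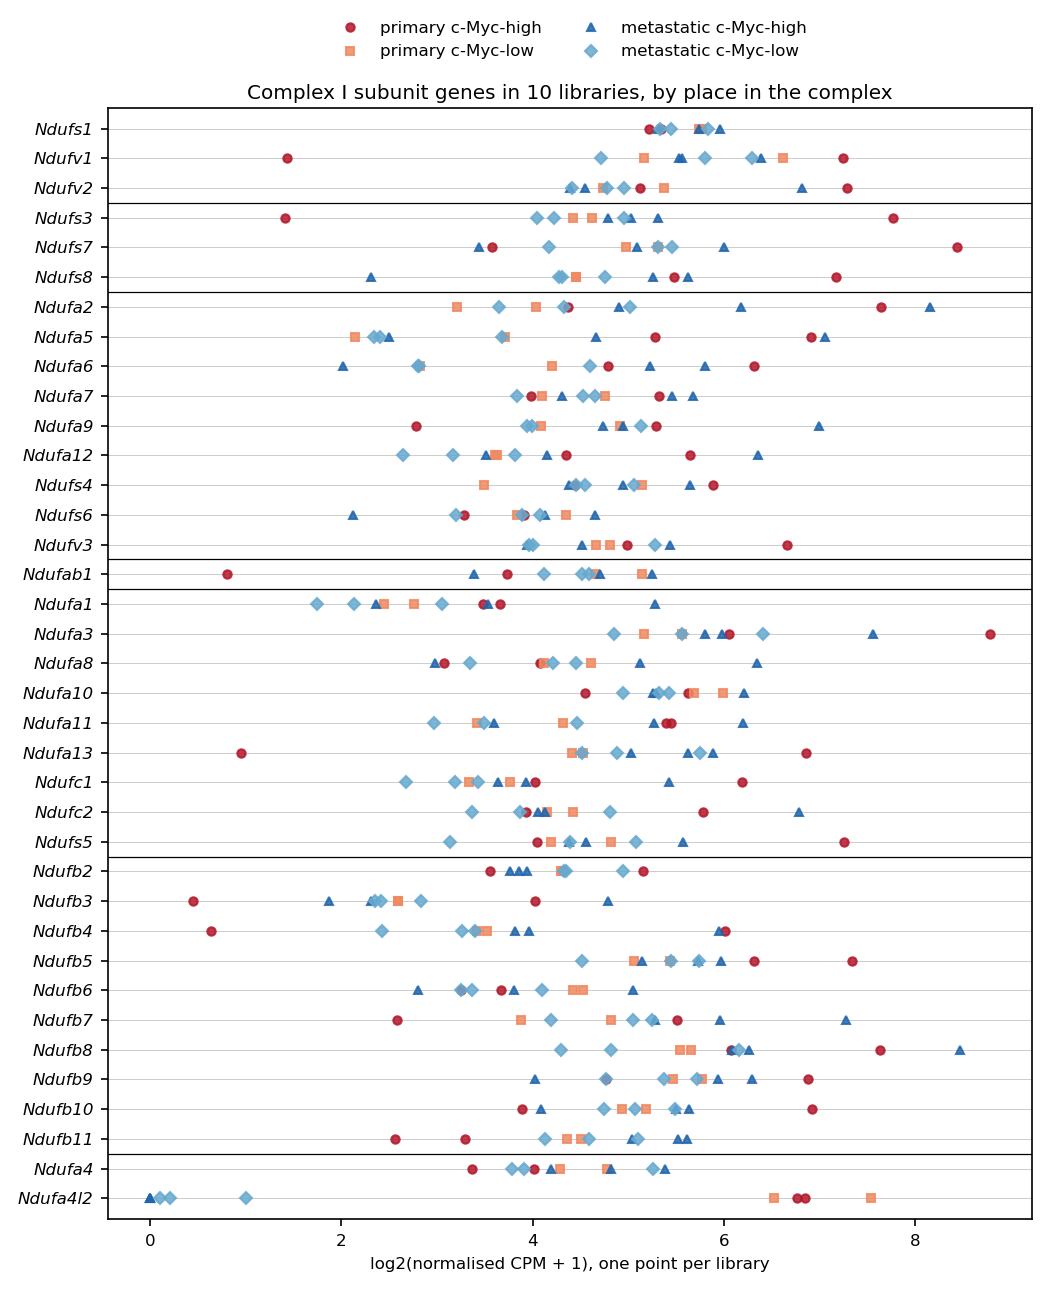
Level of 37 of the 38 genes in each library as log2(normalised CPM + 1), with genes grouped by place in the complex from the catalytic core (top) to Ndufa4 and Ndufa4l2 (bottom). Of the genes shown, only Ndufa4l2 has all metastatic libraries, at 0 to 1.01 normalised CPM, below all primary libraries, at 91.2 to 185.

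The electron input module of the core holds 3 of the genes. Levels here and below are normalised CPM, the estimated count scaled to the TMM-adjusted library total. Ndufs1, the large subunit that carries several iron-sulphur clusters, was at 36.1 and 39.7 in c-Myc-high and 52.3 and 53.8 in c-Myc-low skin libraries, and 52.3, 38.7 and 61.2 in c-Myc-high and 56.1, 39.3 and 42.7 in c-Myc-low lymph node libraries. It varied least of the 38, by 1.70-fold between its lowest and highest library. Ndufv1 was at 151 and 1.69 in c-Myc-high and 97.4 and 34.9 in c-Myc-low skin libraries, and 82.7, 46.2 and 45.3 in c-Myc-high and 77.4, 54.8 and 25.2 in c-Myc-low lymph node libraries. Both its highest and its lowest value thus lay in the same group. Ndufv2, an iron-sulphur protein beside Ndufv1, was at 33.8 and 155 in c-Myc-high and 25.7 and 40.3 in c-Myc-low skin libraries, and 22.3, 19.9 and 112 in c-Myc-high and 20.3, 26.4 and 30.1 in c-Myc-low lymph node libraries. Its 2 high values came from the 2 libraries with fewest counts.

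The ubiquinone module of the core passes the electrons on to ubiquinone. Ndufs7, which carries the last iron-sulphur cluster before ubiquinone, was at 344 and 10.9 in c-Myc-high and 30.4 and 38.6 in c-Myc-low skin libraries, and 33.0, 63.1 and 9.81 in c-Myc-high and 42.8, 17.0 and 38.7 in c-Myc-low lymph node libraries. Ndufs3, a structural core subunit, was at 217 and 1.65 in c-Myc-high and 20.5 and 23.6 in c-Myc-low skin libraries, and 26.6, 38.6 and 31.6 in c-Myc-high and 17.7, 15.6 and 30.1 in c-Myc-low lymph node libraries. For Ndufs7 and Ndufs3, primary c-Myc-high replicate 1 stood far above replicate 2, and the low libraries lay between them. Ndufs8, another iron-sulphur subunit, was at 144 and 43.4 in c-Myc-high and 20.9 and 20.9 in c-Myc-low skin libraries, and 37.3, 48.3 and 3.97 in c-Myc-high and 26.0, 18.8 and 18.3 in c-Myc-low lymph node libraries. Its c-Myc-high values exceeded the c-Myc-low ones in skin and in all but metastatic c-Myc-high replicate 3 in lymph nodes.

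Ndufa4l2 was the gene with the clearest difference. It was at 108 and 114 normalised CPM in c-Myc-high and 185 and 91.2 in c-Myc-low skin libraries, 0 in all 3 c-Myc-high lymph node libraries, and 1.01, 0.156 and 0.0760 in the c-Myc-low lymph node libraries. Its mean was 111 ± 4.46 (SD, n = 2) in c-Myc-high and 138 ± 66.0 (SD, n = 2) in c-Myc-low skin cells, against 0.413 ± 0.516 (SD, n = 3) in c-Myc-low lymph node cells. No metastatic library overlapped a primary one, and the lowest primary c-Myc-low library stood 90.5-fold above the highest metastatic c-Myc-low one. Ndufa4 showed no such gap: it was at 9.33 and 15.1 in c-Myc-high and 26.4 and 18.4 in c-Myc-low skin libraries, and 27.3, 17.2 and 40.9 in c-Myc-high and 37.3, 14.0 and 12.8 in c-Myc-low lymph node libraries. Ndufa4l2 lies on chromosome 10 at 127514967 to 127517154 of GRCm38, plus strand, with 1 transcript in the table and 32 exonic bases shared with Shmt2 on the other strand, so without stated strandedness a read from those bases cannot be assigned.

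In edgeR's quasi-likelihood test with Benjamini-Hochberg adjustment over 16805 genes, Ndufa4l2 fell in metastatic cells of both classes and was the only one of the 38 genes called in either class. In c-Myc-high cells the level fell at least 391-fold, taking a floor of 3 counts over the 3 metastatic libraries, with an adjusted p of 0.00623 by edgeR. In c-Myc-low cells the log2 fold change was -8.34 (SE 1.29, edgeR adjusted p 0.00937), and over both classes together it was -10.20 (SE 1.07, edgeR adjusted p 0.000362), a fitted value that includes the libraries at 0. The background share of all tested genes called lower was 2.31% in c-Myc-high, 1.74% in c-Myc-low and 5.64% in both classes together, and called higher 1.65%, 0.375% and 8.13%. The c-Myc-high call was lost without the 2 libraries rich in salivary gland transcripts, where the log2 fold change was -12.23. That fit leaves 1 metastatic c-Myc-high library, assumed to vary like the others. The loss of replication and the loss of salivary transcripts cannot be told apart there. The c-Myc-low call was lost without primary c-Myc-low replicate 1 (edgeR adjusted p 0.0505) or metastatic c-Myc-low replicate 2 (edgeR adjusted p 0.0653).

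**Figure D2:**
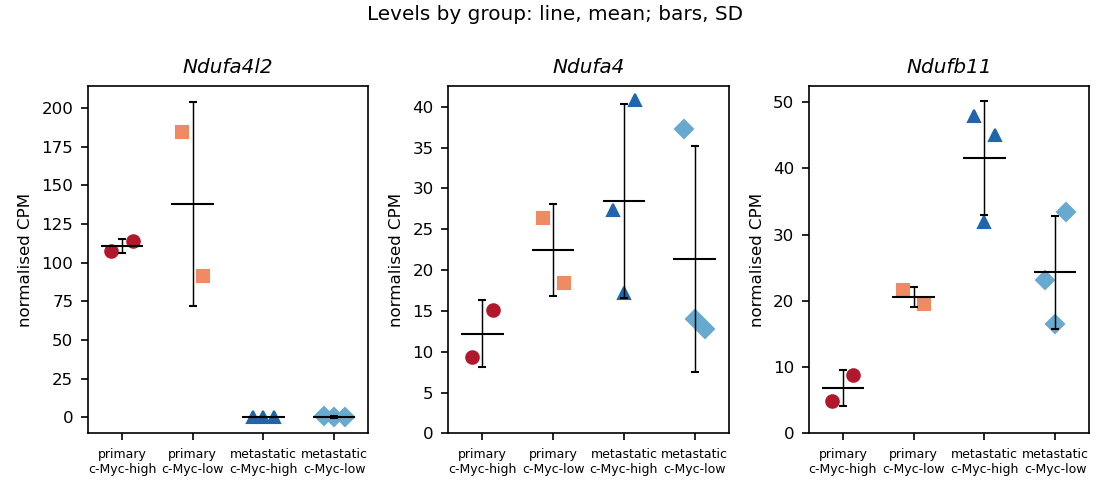
Normalised CPM of Ndufa4l2, its paralogue Ndufa4 and Ndufb11 in each library by group, with lines for group means and bars for the SD. Ndufa4l2 lies at 91.2 to 185 in the 4 primary libraries and at 0 to 1.01 in the 6 metastatic ones, while Ndufa4 overlaps between sites in c-Myc-low cells, and Ndufb11 is lowest in the 2 primary c-Myc-high libraries at 4.90 and 8.82.

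The keratinocyte list differed between the sites in the direction of Ndufa4l2. All 16 keratinocyte genes were called lower in metastatic than primary cells over both classes, with summed levels of 50089 and 63686 CPM in c-Myc-high and 53496 and 24034 in c-Myc-low skin libraries, and 39.0 to 336 in c-Myc-high and 37.8 to 54.9 in c-Myc-low lymph node libraries. A list of 11 pericyte and smooth muscle genes, added after the values were seen because Ndufa4l2 is also known from pericytes, summed to 172 and 339 CPM in c-Myc-high and 138 and 196 in c-Myc-low skin libraries, and 92.8 to 187 in c-Myc-high and 149 to 835 in c-Myc-low lymph node libraries. Its ranges overlapped between the sites in both classes. Over both classes 8 of its 9 tested genes had a positive log2 fold change, metastatic over primary, with a median of 2.36, and none of those was called by edgeR. The exception, Notch3, was called lower. Notch3 held 63.5 to 143 CPM of the list's sum in primary libraries and 1.37 to 14.9 CPM in metastatic ones. Another gene, Cspg4, held 551 of 835 and 364 of 607 CPM in metastatic c-Myc-low replicates 1 and 2. It held 148 of 187 CPM in metastatic c-Myc-high replicate 1 and 200 of 339 CPM in primary c-Myc-high replicate 1. Elsewhere Cspg4 was at 6.23 to 74.97 CPM. The source of its transcripts was not tested, so the sums are not a measure of pericytes. A list of 12 tested hypoxia-induced genes, also added then, summed to 1076 and 1134 CPM in c-Myc-high and 1469 and 1499 in c-Myc-low skin libraries, and 492 to 1811 in c-Myc-high and 389 to 840 in c-Myc-low lymph node libraries. The sum of 1811 CPM, in metastatic c-Myc-high replicate 3, held 1264 CPM of 1 gene, Adm, which encodes the vasodilator peptide adrenomedullin. Over both classes 3 of the 12 were called lower (Egln1, Egln3, Slc2a1) and 0 higher. Egln3, which encodes a prolyl hydroxylase that marks HIF for degradation, was at 131 to 356 normalised CPM in primary and 4.89 to 42.8 in metastatic libraries, with a log2 fold change over both classes of -3.68 (SE 0.61, edgeR adjusted p 0.00292). The part of skin cells or of hypoxia in the Ndufa4l2 difference was not tested.

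None of the other 37 genes was called between sites by edgeR, which does not show that they were unchanged. Their median log2 fold change, metastatic over primary, was -0.05 in c-Myc-high cells against 0.38 for all tested genes, with 18 of 37 positive against 56.7% of all genes. In c-Myc-low cells the median was -0.14 against 0.10, with 12 of 37 positive against 53.8%. In c-Myc-low cells no estimate among the 37 reached 1 on the log2 scale in either direction, with a range from -0.91 for Ndufb6 to 0.82 for Ndufa2. In c-Myc-high cells the range was wider, from -2.33 for Ndufs7 (SE 1.11) to 2.68 for Ndufb11 (SE 0.87). By place in the complex, the c-Myc-high medians were -0.41 for the 3 electron input and -1.70 for the ubiquinone module genes, 0.05 for the 9 matrix-arm, -0.05 for the 9 proximal and 0.11 for the 10 distal membrane-arm supernumerary genes. Over both classes the median was -0.10 against 0.28, with 16 of 37 positive against 57.6%. At an unadjusted p under 0.05, 1 of the 38 was higher (Ndufb11) and 1 lower (Ndufa4l2) in c-Myc-high cells, against 16.3% and 9.96% of all tested genes. The counts were 0 higher and 1 lower in c-Myc-low cells, against 9.12% and 6.03%, and 1 higher and 1 lower over both, against 20.3% and 10.1%. DESeq2 called Ndufa4l2 and Ndufb11 in c-Myc-high cells and over both classes, beside 19.3% and 23.6% of all genes, and Ndufa4l2 alone in c-Myc-low cells, beside 10% of all genes.

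Ndufb11, an X-linked membrane-arm subunit gene named here after its values were seen, had the lowest p of the 37 between sites. It was at 4.90 and 8.82 normalised CPM in c-Myc-high and 21.6 and 19.5 in c-Myc-low skin libraries, and 47.8, 31.8 and 45.0 in c-Myc-high and 23.1, 16.5 and 33.4 in c-Myc-low lymph node libraries. The c-Myc-high groups did not overlap, but the log2 fold change of 2.68 (SE 0.87) missed the threshold with an edgeR adjusted p of 0.0944. Without the 2 libraries with fewest counts, which leaves 1 primary c-Myc-high library assumed to vary like the others, 6 of the 38 genes were called in c-Myc-high cells (Ndufa4l2, Ndufab1, Ndufb11, Ndufb4, Ndufs3, Ndufs7), beside 2931 of 18353 genes, and Ndufb11 stood at 3.10 (edgeR adjusted p 0.0420). Without primary c-Myc-high replicate 2 alone, 3 were called (Ndufa4l2, Ndufab1, Ndufs3), beside 1232 of 18424 genes. Of the 38 genes, 2 had metastatic c-Myc-high levels wholly above the primary ones (Ndufa4, Ndufb11) and 2 wholly below (Ndufa4l2, Ndufb5), against 17.4% and 10.5% of all tested genes. In c-Myc-low cells 1 lay wholly above (Ndufb2) and 5 wholly below, against 25.2% and 20.1%. Over both classes Ndufa4l2 alone lay wholly below and 0 wholly above, against 5.13% and 5.87%.

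**Figure D3:**
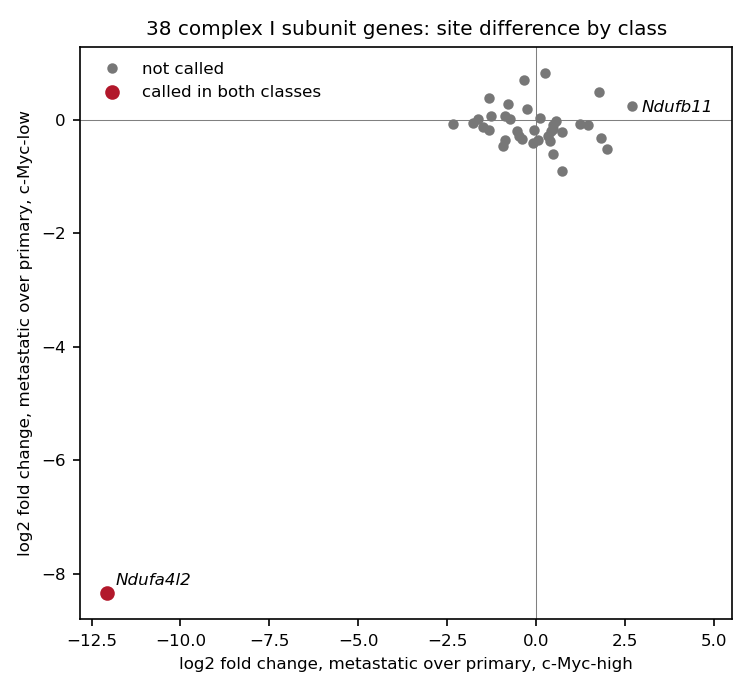
Log2 fold change of each of the 38 genes, metastatic over primary, in c-Myc-high (x axis) and c-Myc-low cells (y axis), with called genes in red. Ndufa4l2 sits apart at -12.07 and -8.34, and the other 37 lie within -0.91 to 0.82 on the y axis and -2.33 to 2.68 on the x axis. The value of -12.07 is fitted with all metastatic c-Myc-high libraries at 0, so its size is not resolved.

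Between the c-Myc classes none of the 38 genes was called by edgeR at either site or over both, where the share of all tested genes called was 0% in each direction. At an unadjusted p under 0.05 over both sites, 7 of the 38 were higher and 0 lower in c-Myc-high cells, against 5.34% and 7.52% of all tested genes. The counts were 3 higher and 0 lower in primary cells, against 4.29% and 7.33%, and 3 higher and 0 lower in metastatic cells, against 3.05% and 1.76%. DESeq2 called 2 of the 38 over both sites, Ndufa2 and Ndufa5, both higher in c-Myc-high cells, beside 2.98% of all genes. DESeq2 called 0 of the 38 within either site, beside 2.37% of all genes in primary and 0.512% in metastatic cells. Without the 2 libraries with fewest counts, edgeR called 5 of the 38 in primary cells (Ndufa3, Ndufab1, Ndufs3, Ndufs7, Ndufs8), beside 1132 of 18353 genes, and Ndufs8 alone over both sites, beside 268. Among the markers that moved with class or with single c-Myc-high libraries, the 12 salivary gland genes had the sums given above, and 7 fibroblast genes summed to 3454 CPM in primary c-Myc-high replicate 2 against 22.8 to 823 CPM in the other 9 libraries. Their part in the class differences was not tested.

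The median log2 fold change of the 37 genes, c-Myc-high over c-Myc-low, was 0.92 over both sites against -0.11 for all tested genes, and 29 of 37 were positive against 46.3%. It was 1.03 in primary cells against -0.12 (28 of 37 positive against 44.7%) and 0.61 in metastatic cells against 0.00 (36 of 37 positive against 49.5%). The sign of these medians changed with the scale, and their size with the scale and with single libraries. The median of all tested genes moved too. Leaving out any single library gave 0.03 to 1.16 in primary cells, 0.58 to 0.97 in metastatic cells and 0.30 to 1.11 over both sites. Without primary c-Myc-high replicate 1 the primary median was 0.03 against -0.72 for all tested genes, with 19 of 37 positive. Without the 2 libraries rich in salivary gland transcripts, which leaves 1 metastatic c-Myc-high library, the metastatic median was 0.38, with 26 of 37 positive. On the deposited RPKM values the medians were -0.10 in primary cells (18 of 37 positive) and -0.18 in metastatic cells (15 of 37 positive). All genes tested on RPKM had medians of -0.27 and -0.40 there. Over both sites the RPKM median was -0.07 against -0.35 for all genes, with 16 of 37 positive. Without the RPKM filter the all-gene medians were -0.03 in primary cells, -0.11 in metastatic cells and -0.08 over both sites. Without primary c-Myc-high replicate 1 the count-based median over both sites was 0.30 against -0.44, with 24 of 37 positive. Direction is therefore given for normalised CPM only.

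By place, the median over both sites was 0.18 for the electron input and 1.29 for the ubiquinone module, 0.79 for the matrix-arm, 1.24 for the proximal and 0.71 for the distal supernumerary genes, and -1.02 for Ndufab1, the mitochondrial acyl carrier protein. Ndufs1 and Ndufv1 lay near 0, at -0.17 (SE 0.46) and 0.18 (SE 0.82). Of the 38 genes, 12 had primary c-Myc-high levels wholly above the c-Myc-low ones and 7 wholly below, against 11.3% and 30.1% of all tested genes. In metastatic cells 3 lay wholly above (Ndufb4, Ndufb7, Ndufc1) and 2 wholly below (Ndufa4l2, Ndufb2), against 3.33% and 7.74%. Over both sites 0 separated the classes in either direction, against 0.399% and 1.65%.

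**Figure D4:**
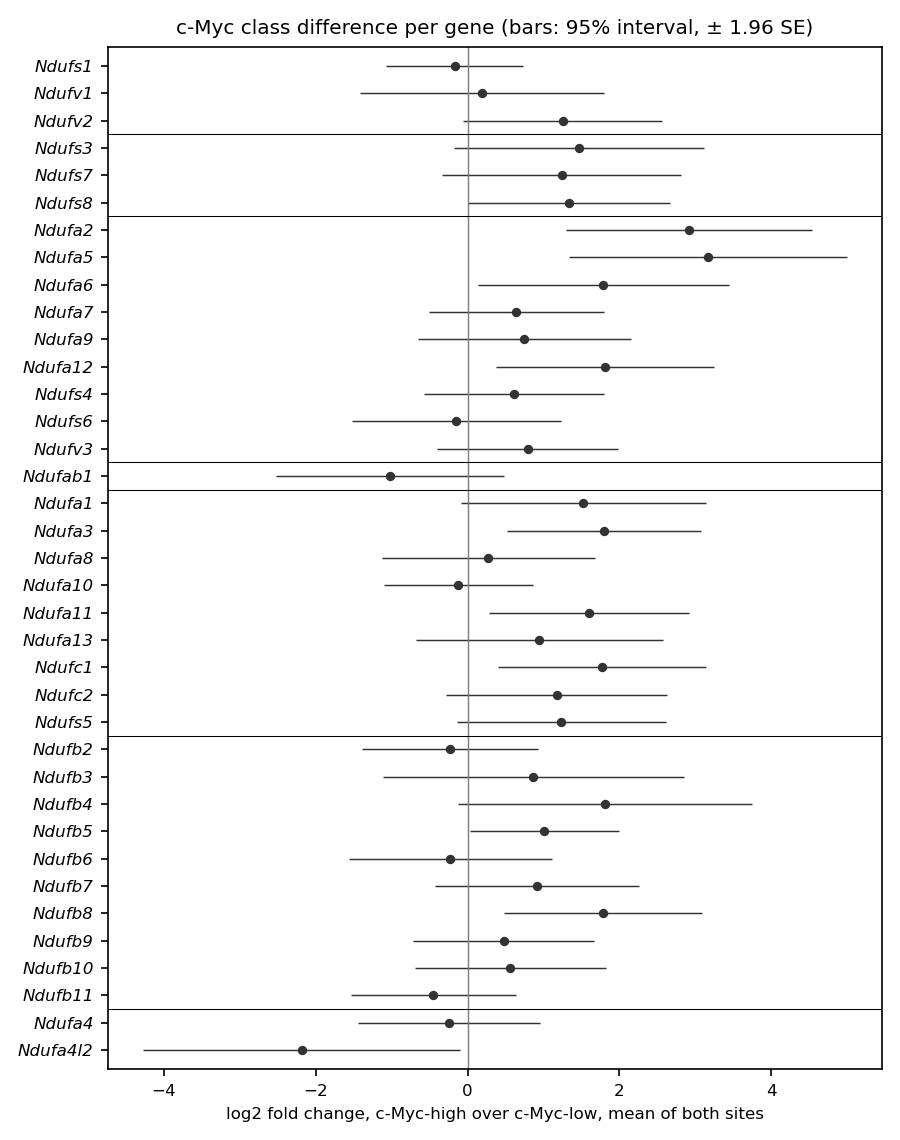
Log2 fold change of 37 of the 38 genes, c-Myc-high over c-Myc-low averaged over both sites, with 95% intervals from the edgeR fit, grouped by place in the complex. Ndufa2 at 2.92 and Ndufa5 at 3.17 lie farthest to the right and Ndufa4l2 at -2.19 farthest to the left. No gene passed the adjusted threshold. The Ndufa4l2 value is fitted with all metastatic c-Myc-high libraries at 0, so its size is not resolved.

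The lowest p-values over both sites belonged to Ndufa2, Ndufa5 and Ndufa3. Ndufa2, a matrix-arm subunit with a thioredoxin-like fold, was at 19.6 and 198 normalised CPM in c-Myc-high and 8.25 and 15.4 in c-Myc-low skin libraries, and 29.0, 71.5 and 285 in c-Myc-high and 19.1, 11.5 and 31.5 in c-Myc-low lymph node libraries. Its log2 fold change was 2.92 (SE 0.82, edgeR adjusted p 0.305). Ndufa5, another matrix-arm subunit, was at 37.8 and 120 in c-Myc-high and 3.42 and 12.1 in c-Myc-low skin libraries, and 4.65, 24.3 and 132 in c-Myc-high and 11.8, 4.27 and 4.08 in c-Myc-low lymph node libraries, with a log2 fold change of 3.17 (SE 0.93, edgeR adjusted p 0.305). For both genes the 2 highest values came from the 2 libraries with fewest counts, and without those the log2 fold changes were 0.96 (edgeR adjusted p 0.274) and 1.64 (edgeR adjusted p 0.207). Ndufa3, a small membrane-arm subunit, was at 439 and 65.5 in c-Myc-high and 34.8 and 46.3 in c-Myc-low skin libraries, and 62.1, 187 and 54.9 in c-Myc-high and 46.3, 27.7 and 83.7 in c-Myc-low lymph node libraries, with a log2 fold change of 1.79 (SE 0.65, edgeR adjusted p 0.314).

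Within the sites, Ndufa2 and Ndufa5 were again among the 3 genes with the lowest p. In primary cells the log2 fold changes were 2.64 (SE 1.04) for Ndufa3, 3.20 (SE 1.28) for Ndufa2 and 3.35 (SE 1.44) for Ndufa5, each with an edgeR adjusted p of 0.419. In metastatic cells they were 2.99 (SE 1.15) for Ndufa5, 2.63 (SE 1.02) for Ndufa2 and 2.09 (SE 0.84) for Ndufb8, each with an edgeR adjusted p of 1. Ndufb8, a distal membrane-arm subunit, was at 66.2 and 198 in c-Myc-high and 49.5 and 45.5 in c-Myc-low skin libraries, and 66.9, 75.8 and 353 in c-Myc-high and 70.4, 27.2 and 18.7 in c-Myc-low lymph node libraries.

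The class difference was not shown to differ between sites for any of the 38, and 0 genes were called in all by edgeR. The 3 lowest p-values for this difference, as metastatic minus primary, were those of Ndufb11 at 2.44 (SE 1.12, edgeR adjusted p 0.725), Ndufa4l2 at -3.74 (SE 2.08, edgeR adjusted p 0.761) and Ndufab1 at 2.51 (SE 1.54, edgeR adjusted p 0.773). Ndufab1 was at 0.751 and 12.3 normalised CPM in c-Myc-high and 34.4 and 24.1 in c-Myc-low skin libraries, and 37.04, 25.0 and 9.49 in c-Myc-high and 23.1, 21.9 and 16.4 in c-Myc-low lymph node libraries. Both primary c-Myc-high values lay below all other libraries except metastatic c-Myc-high replicate 3. The Ndufa4l2 value is a fitted one with all 3 metastatic c-Myc-high libraries at 0, so its size is not resolved. At an unadjusted p under 0.05, 1 of the 38 was higher and 0 lower, against 4.74% and 2.11% of all tested genes, with 19 of 37 positive against 54.6%, and DESeq2 called 0 of the 38 beside 0.5% of all genes.

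The highest levels lay in c-Myc-high libraries more often than the lowest. All 37 genes had their highest normalised CPM in 1 of the 5 c-Myc-high libraries, against 68.8% of all tested genes, and 24 of 37 had their lowest there, against 85.4%. On RPKM the highest value lay in a c-Myc-high library for 26 of 37, and 9 genes had their lowest normalised CPM in metastatic c-Myc-low replicate 2. Metastatic c-Myc-high replicate 3 was highest for 14 genes and primary c-Myc-high replicate 1 for 13, and the other 3 c-Myc-high libraries for 5, 4 and 1. Replicates of primary c-Myc-high cells differed 4-fold or more for 16 of the 37 genes and metastatic c-Myc-high replicates for 19, against 0 in primary c-Myc-low and 1 in metastatic c-Myc-low cells. The same share over all tested genes was 62.7%, 67.6%, 16.9% and 28.1%.

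Some of the 37 genes were near the limit of detection in 1 primary c-Myc-high library and high in the other. Ndufs3, Ndufa13 and Ndufv1 had 1.77, 1 and 1.81 estimated counts in replicate 2, and Ndufb4 and Ndufb3 had 2.31 and 1.5 in replicate 1. All lay under the floor of 3 counts, so the size of their range is not resolved. Ndufa13, a membrane-arm subunit also known as GRIM-19, was at 115 and 0.933 normalised CPM in the 2 primary c-Myc-high libraries and at 20.3 to 58.2 elsewhere. Ndufb4 was at 0.555 and 63.7 in those 2 libraries, and Ndufb3 at 0.360 and 15.3. These genes were named after their values were seen. Across the 37 genes, log2 levels of the 2 libraries with fewest counts, named above, correlated with any other library at -0.15 to 0.29 (Pearson's r, 17 pairs of libraries), and the other 8 libraries correlated among themselves at 0.37 to 0.87 (28 pairs). Over all tested genes the ranges were 0.46 to 0.75 and 0.51 to 0.93. These are descriptions across genes that share libraries and depth. In primary c-Myc-high replicate 2 only 31 of the 38 genes had 10 counts or more.

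**Figure D5:**
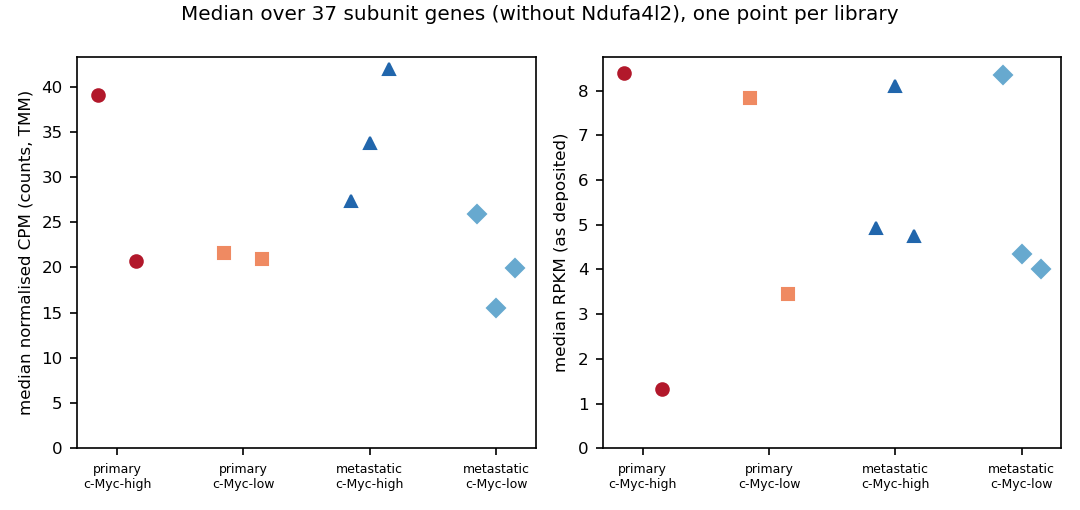
Median level of the 37 genes in each library as normalised CPM (left) and as deposited RPKM (right), with 1 point per library. Normalised CPM medians run from 15.6 to 42.0 with 4 of the 5 c-Myc-high libraries at the top, whereas primary c-Myc-high replicate 2 has the lowest RPKM median at 1.33.

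Part of the counts of some genes could not be assigned with certainty. Near-identical copies were found for 7 of the 38 genes, at 95% identity or more over at least 80% of the copy and 300 bases. The copies held 127% of the gene's own count for Ndufb11, 108% for Ndufa12, 107% for Ndufb4, 106% for Ndufab1, 89.3% for Ndufs3, 85.1% for Ndufs6 and 20.7% for Ndufs5. Adding them changed no count of called genes among the 38. Coding transcripts took 2.94% of the summed count of Ndufs3 and 12.7% of that of Ndufa7, the rest being assigned to transcripts annotated as non-coding, while Ndufa4l2 had a single coding transcript.

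The other genes of the pathway were taken from fixed lists of known members. Of 14 tested complex I assembly factors, which build the complex without staying in it, 1 was called higher and 0 lower in metastatic than primary c-Myc-high cells. All tested genes were called higher in 1.65% and lower in 2.31% there. In c-Myc-low cells 0 factors were called, against 0.375% and 1.74%. Over both classes 1 was called higher and 1 lower, against 8.13% and 5.64% of all tested genes. The higher one was Ndufaf3, at 0 in both primary c-Myc-high libraries, 9.55 and 4.30 in primary c-Myc-low, 10.6, 10.9 and 14.3 in metastatic c-Myc-high, and 9.84, 5.80 and 7.27 in metastatic c-Myc-low libraries. It was at least 20.9-fold higher in metastatic than primary c-Myc-high cells on a floor of 3 counts over the group, with an edgeR adjusted p of 0.0374. This call was lost when any library other than those 2 with fewest counts was left out (edgeR adjusted p 0.0559 to 0.115), and its call over both classes was lost in 11 of 22 alternatives. The lower one was Acad9, which encodes an acyl-CoA dehydrogenase family member of the assembly machinery, at 74.0 to 222 in primary and 1.21 to 22.7 in metastatic libraries, with a log2 fold change of -3.09 (SE 0.70, edgeR adjusted p 0.0140). The Acad9 call was lost in 6 of 22 alternatives, among them leaving out primary c-Myc-low replicate 1 (edgeR adjusted p 0.0505) or replicate 2 (edgeR adjusted p 0.0519), while its log2 fold change stayed between -3.39 and -2.75 whichever single library was left out.

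Of 14 regulators of mitochondrial gene expression, Ppargc1a alone was called higher in metastatic cells over both classes, against 8.13% of all tested genes. None was called lower there, against 5.64%, and 0 were called in any other comparison. Ppargc1a, the coactivator known for driving mitochondrial biogenesis, was at 1.27 to 25.8 normalised CPM in primary and 18.1 to 624 in metastatic libraries. Its log2 fold change was 4.63 (SE 1.04, edgeR adjusted p 0.0138). The call was lost in 8 of 22 alternatives, among them those without primary c-Myc-high replicate 1 (edgeR adjusted p 0.0540) or 2 (edgeR adjusted p 0.0570) or primary c-Myc-low replicate 1 (edgeR adjusted p 0.0954). Without the 2 libraries rich in salivary gland transcripts, which leaves 1 metastatic c-Myc-high library, the log2 fold change of Ppargc1a was 2.59. The 4 complex II, 9 complex III, 10 complex IV and 15 complex V genes tested held 0 called genes in each of the 7 comparisons. Over both sites their median log2 fold changes, c-Myc-high over c-Myc-low, were 0.76, 0.75, 0.68 and 0.19, beside 0.92 for the 37 complex I names.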

How the data were processed

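Per the labels' protocols, total RNA of sorted cells was amplified and sequenced from 10 libraries. The authors deposited estimated counts per transcript, unscaled between libraries, and RPKM values, scaled by them to transcript length and library. Bowtie2, limma and mm10 appear in the submitters' processing notes. For the assigning program, annotation release and strandedness: not given in the sources used here. Counts were summed by gene name, rounded, filtered with filterByExpr (16805 genes kept), TMM-scaled and fitted in edgeR 4.0.16 (R 4.3.3) by robust quasi-likelihood over all 4 groups, with Benjamini-Hochberg adjustment and a threshold of 0.05. The common biological coefficient of variation was 0.876. Marker list sums are plain CPM of all counts. RPKM was tested on log2(RPKM + 1) with limma 3.58.1 as an alternative, and DESeq2 1.42.0 as another, in up to 23 alternatives. The scripts were tested on simulated data with 50 changed genes per size. Between sites in c-Myc-high cells, edgeR recovered 0% of genes at a true log2 change of 2 and 14% at 4. Between classes over both sites it recovered 2% and 56%. A gene not called is therefore not shown to be unchanged. Replicates of a group were not duplicates (chi-square per degree of freedom 48.4 to 228). Floors are 3 counts over a group and cover counting error only. Positions are from GENCODE M21 (GRCm38), where 95.7% of transcripts were found, and copies were found with blastn 2.17.0.

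The genes and lists were chosen with earlier results of these data known. Values per library are given for the core subunits (of which 1 is counted in the sums, medians and counts but not reported singly here), Ndufa4, Ndufa4l2 and the genes of the next rule. Fold changes are given for called genes, or for the 3 with the lowest p where none was called, and of each other list the gene with the lowest p may be named. Some single genes outside the complex are named beyond this rule, as said in the text.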

Additional observations from a re-analysis of the deposited data

How the results depend on the processing

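Ndufa4l2 was called lower in metastatic cells over both classes in all 22 alternatives of that comparison, and in 21 of 23 within each class. In c-Myc-high cells the number of the 38 genes called was 1, and it became 2 with DESeq2, 0 on RPKM without a filter (Ndufa4l2 log2 fold change -3.79, limma adjusted p 0.183), 0 without the 2 libraries rich in salivary gland transcripts and 6 without the 2 libraries with fewest counts (Ndufa4l2, Ndufab1, Ndufb11, Ndufb4, Ndufs3, Ndufs7). Leaving out either of these pairs of libraries leaves 1 library in a c-Myc-high group, assumed to vary like the others. The alternative without the 2 libraries with fewest counts and the addition of near-identical copies were chosen after seeing the data. Leaving out single replicates gave 1 to 3 there (3 without primary c-Myc-high replicate 2), 0 to 1 in c-Myc-low cells, and 1 to 2 over both classes (2 without primary c-Myc-high replicate 1, with Ndufa13). Over both classes the count was 2 with DESeq2 (Ndufa4l2, Ndufb11) and 6 without the 2 libraries with fewest counts. Between the classes it moved from 0 to 5 in primary cells without those 2 libraries, where each primary group comparison rests on 1 c-Myc-high library assumed to vary like the others, and over both sites to 1 without them (Ndufs8) and 2 with DESeq2. The Ndufa4l2 difference of class contrasts, -3.74, reversed on RPKM to 0.80 at a pseudocount of 1, 0.085 at 0.1 and 0.80 without a filter. The cause of these shifts was not tested. Same-numbered metastatic libraries of the 2 classes did not stand out (correlations of deviations from the group mean 0.092, -0.199 and -0.331). Differently numbered ones reached 0.585 for c-Myc-high 2 with c-Myc-low 3, 0.384 for 3 with 1 and 0.249 for 1 with 2. The remaining pairs were at -0.513, -0.235 and -0.026. In primary cells 2 libraries per group fix the size at 0.076. Pairing under other numbers was therefore not excluded, and the replicate block, which joins equal numbers, does not address it. With the replicate block the count stayed at 1 in each site comparison and 0 in each class comparison, while calls over all genes went from 667 to 150, 355 to 140 and 2313 to 965. Replicates with fewer counts limit low genes: 3 counts stand for 0.438 to 1.87 CPM in a library.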
